A study of Mus musculus with 6 samples.

Results

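The genes described here encode the proteins of the mitochondrial ribosome in mouse embryonic stem (ES) and extraembryonic endoderm (XEN) cells. They were taken by symbol, as every row whose symbol begins with Mrpl or Mrps and a number. This gave 78 of the 17710 genes listed in any of the 6 expression tables, 49 Mrpl genes for the large subunit and 29 Mrps genes for the small subunit. All 78 were listed in all 6 tables and all 78 passed the filter on low counts, among 13581 genes tested.

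The study set out to characterise metabolism and mitochondria in XEN cells, per its title. The ES cells carried the strain label 129/Ola and were grown on gelatin in N2B27-2iLIF, a serum-free medium with 2 kinase inhibitors and the cytokine LIF that keeps cells in the naive pluripotent state. The XEN cells, which stand for the primitive endoderm that lines the yolk sac, carried the strain label ICR and were grown in RPMI1640 with fetal bovine serum and the additives Glut and BME, as labelled. Each group had 3 libraries, A to C, of total RNA. Strain, medium and cell type changed together, so their parts in any difference cannot be told apart. The labels do not say whether the 3 libraries came from separate cultures or lines, so p-values measure only the spread between these libraries. Total expected counts were 20675311 to 22375875 per library.

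Both labels were checked against defining markers. The summed level of 5 ES markers (Pou5f1, Nanog, Sox2, Esrrb and Zfp42), in CPM (counts scaled to a common library size), was 4122 to 4196 CPM in ES libraries and 1.16 to 1.70 CPM in XEN libraries. That of 6 XEN markers (Gata4, Gata6, Sox17, Sox7, Pdgfra and Dab2) was 4.88 to 5.63 CPM in ES and 4726 to 5015 CPM in XEN libraries. Of the markers of other cells, 4 feeder cell genes summed to 3.0 to 3.58 CPM in ES and 0.426 to 0.537 CPM in XEN libraries. The sums were 82.7 to 86.3 and 6.96 to 8.59 CPM for 4 trophoblast genes, 87.8 to 93.8 and 13.4 to 13.7 CPM for 3 neural genes, and 7.12 to 9.38 and 0 to 0.0447 CPM for 2 mesoderm genes, in ES and XEN libraries. The trophoblast sum rested on Tfap2c (mean 61.5 CPM in ES, 0.0596 in XEN) and Eomes (23.3 and 7.02), while Cdx2 was at 0.155 and 0.802 CPM and Elf5 at 0.0151 and 0.0298. Mesp1, one of the mesoderm pair, was at 0 in all XEN libraries. The part of such cells in the results below was not tested. In bulk libraries, fewer cells of a type and less RNA per cell cannot be told apart.

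Mitochondria keep a small genome of their own, and the mitochondrial ribosome translates only its messages, which encode core subunits of the respiratory chain and of ATP synthase. The ribosomal RNAs come from that genome, while all of the ribosome's proteins are encoded in the nucleus, made in the cytosol and imported. The large subunit holds the peptidyl transferase centre, the exit tunnel, the stalks and the central protuberance that faces the small subunit. The small subunit decodes the message. Many members descend from bacterial ribosomal proteins and the rest are found in mitochondria only.

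The members did not move as a block. In XEN against ES cells, 36 of 78 were called higher, 31 were called lower and 11 were not called, by edgeR's quasi-likelihood test with Benjamini-Hochberg adjustment over all 13581 genes at 0.05. Of all tested genes 42.0% were called higher, 46.7% lower and 88.7% either way, so the members' counts lie near the background. The median log2 fold change, XEN over ES, was 0.07 over the members and −0.07 over all tested genes. Each subunit held genes called in both directions: 24 Mrpl genes were higher, 20 lower and 5 not called (median log2 change 0.16), and 12 Mrps genes were higher, 11 lower and 6 not called (median −0.01).

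The changes of the members were mostly small. Of the 67 called members, 41 changed by less than 1.5-fold. The median size of the log2 change, without its sign, was 0.36 over the members, 0.92 over all tested genes and 0.66 over the 6930 tested genes whose mean CPM fell in the members' range. A test against a change of 2-fold (edgeR glmTreat) called 8 of 78 members (10.3%), 2 higher and 6 lower, against 42.7% of all tested genes and 31.5% of the genes in the members' range. The CPM of the 3 ES and the 3 XEN libraries did not overlap in 66 members (42 Mrpl and 24 Mrps genes), or 84.6%, against 89.4% of all tested genes. Mrpl21 and Mrpl28 were called with overlapping values, and Mrps28 had separate values and was not called.

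How many members counted as higher or lower depended on the scaling of the libraries. Upper-quartile scaling and scaling to library size alone moved the median log2 change of all genes from −0.07 to −0.21 and −0.20. The split of members was then 27 higher and 37 lower with upper-quartile factors and 28 and 37 with library size alone, in place of 36 and 31. The split of all 13581 tested genes moved as well, to 5093 higher and 7059 lower with upper-quartile factors and 5153 and 7001 with library size alone. The members' median lay 0.14 above that of all genes on the log2 scale, a difference that scaling leaves as it is, and 0.112 to 0.188 above it over the fits that leave out 1 library. Under all 4 scalings 27 members (17 Mrpl, 10 Mrps) were called higher and 31 (20 Mrpl, 11 Mrps) lower, 5 were called under none, and no member was called in both directions. The plot of fold changes shows the whole set, gene by gene.

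**Figure D1:**
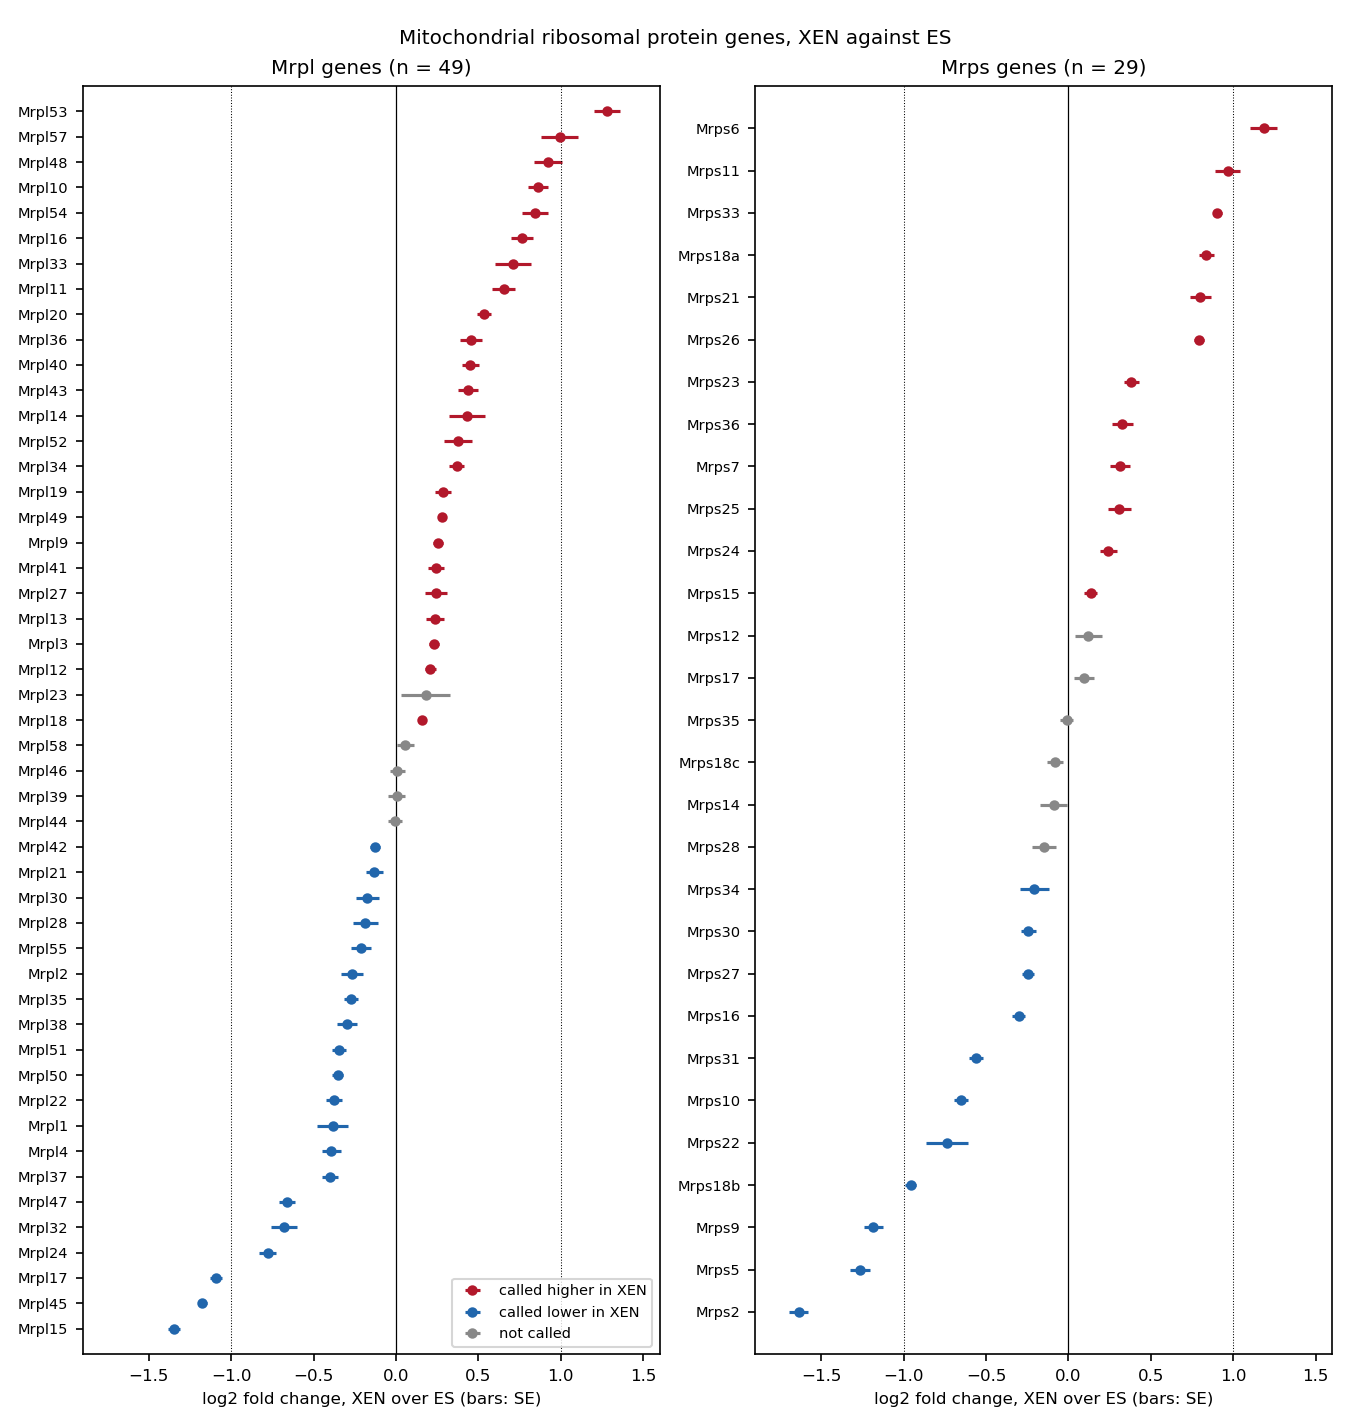
Log2 fold change of each member, XEN over ES, with its standard error (x axis), for the 49 Mrpl genes (left) and the 29 Mrps genes (right), ordered by value. Red points were called higher, blue lower and grey not called by the edgeR test, and dotted lines mark 2-fold. Both panels hold members lower and members higher in XEN, from −1.64 for Mrps2 to 1.28 for Mrpl53.

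Among the small subunit proteins the largest fall was in Mrps2, the counterpart of the bacterial protein that sits between the head and the body of the subunit. Its level was 178.1, 184.6 and 184.2 CPM in ES libraries and 54.5, 59.3 and 62.2 CPM in XEN libraries. Its log2 fold change was −1.64 ± 0.06 (SE, n = 3 and 3, edgeR adjusted p = 2.92e-18). Mrps2 went per length from rank 5 of 78 in ES cells to rank 53 in XEN cells, with mean FPKM (fragments per kilobase of transcript, scaled to sequencing depth) of 96.6 ± 1.9 and 28.4 ± 1.9 (SD, n = 3).

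Mrps5, another bacterial homologue, near the channel by which the message enters, stood at 133.1, 139.2 and 136.0 CPM in ES libraries and 55.9, 60.7 and 52.9 CPM in XEN libraries (log2 fold change −1.27 ± 0.06). Mrps9, a protein of the head, stood at 65.5, 65.2 and 70.2 CPM against 27.7, 31.0 and 29.6 CPM (−1.18 ± 0.06). In both genes every ES library was more than 2 times as high as any XEN library. Mrps18b was next, at −0.96 ± 0.03, and did not pass the 2-fold test, though it passed with upper-quartile (edgeR adjusted p = 0.00674) or no composition factors (0.0140). Mrps22, a protein found in mitochondria only, fell by 0.73 ± 0.13 on the log2 scale, and Mrps10, another head protein, by 0.65 ± 0.04.

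Mrps6, a bacterial homologue of the platform, was the one small subunit gene to rise past 2-fold. Its level was 15.5, 16.6 and 18.3 CPM in ES and 40.3, 36.7 and 37.6 CPM in XEN libraries, a log2 fold change of 1.18 ± 0.08 (edgeR adjusted p = 6.85e-13). With upper-quartile or no composition factors it no longer passed the 2-fold test (adjusted p = 0.263 and 0.197), while it was still called higher. The gene's span overlaps that of Slc5a3, an inositol transporter gene, which rose from 3.65 to 18.04 CPM, and how RSEM divided reads between them was not tested. Mrps11, a platform protein, rose by 0.97 ± 0.08, from 14.9, 16.8 and 16.9 CPM to 29.6, 32.4 and 33.2 CPM. The other large rises were in Mrps33 (0.90 ± 0.03), Mrps21 (0.80 ± 0.06) and Mrps26 (0.79 ± 0.03), with no overlap between groups in any of them.

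Other small subunit genes changed little or were not called. Mrps12, the counterpart of the bacterial protein at the decoding centre, stood at 25.4, 24.7 and 26.5 CPM in ES and 25.9, 30.8 and 26.5 CPM in XEN libraries and was not called (0.12 ± 0.08, edgeR adjusted p = 0.108). The direction of Mrps12 turned with the scaling, to −0.03 with upper-quartile factors and −0.01 with none. Mrps34 was called lower at −0.21 ± 0.09 (adjusted p = 0.0116), a call that was lost without ES library B (adjusted p = 0.0673) or XEN library A (0.0876). Mrps27, a pentatricopeptide repeat protein, was lower at −0.24 ± 0.03 (adjusted p = 8.47e-05). Mrps14 (−0.09), Mrps17 (0.09), Mrps18c (−0.08), Mrps28 (−0.15) and Mrps35 (−0.01) were not called. Of the other called genes, Mrps31 (−0.56) and Mrps16 (−0.30) were lower, and Mrps7, Mrps15, Mrps23, Mrps24 and Mrps25 were higher by 0.13 to 0.38 on the log2 scale. The calls of Mrps15 and Mrps24 were lost with upper-quartile or no composition factors.

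Among the large subunit proteins 3 genes fell past 2-fold. Mrpl15, a bacterial homologue buried in the body of the subunit, was at 130.2, 122.6 and 132.7 CPM in ES and 50.2, 51.3 and 49.9 CPM in XEN libraries (log2 fold change −1.35 ± 0.04, edgeR adjusted p = 3.77e-17). Mrpl45, a mitochondria-specific protein at the tunnel exit that holds the ribosome to the inner membrane, was at 130.7, 132.7 and 130.1 CPM against 56.8, 60.2 and 57.3 CPM (−1.17 ± 0.03). Mrpl17, a bacterial homologue also at the tunnel exit, was at 95.4, 90.5 and 96.2 CPM against 42.6, 45.2 and 44.2 CPM (−1.09 ± 0.04). The groups were far apart in all 3 genes, with little spread inside either group. Without XEN library A, Mrpl17 no longer passed the 2-fold test (adjusted p = 0.0502).

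Mrpl53, a mitochondria-specific protein at the base of a stalk, showed the largest rise of any member. It went from 15.2, 13.6 and 14.3 CPM to 31.8, 36.5 and 36.3 CPM, a log2 fold change of 1.28 ± 0.08 (edgeR adjusted p = 3.75e-13). Per length Mrpl53 moved from rank 52 in ES cells to rank 12 in XEN cells. Its span overlaps Ccdc142, which rose from 3.09 to 6.77 CPM. Mrpl57, a small mitochondria-specific protein, rose by 0.99 ± 0.11 and Mrpl48, of the central protuberance, by 0.92 ± 0.08. Mrpl16, a bacterial homologue, rose by 0.76 ± 0.07 and Mrpl33 by 0.71 ± 0.11, while Mrpl32, a small bacterial homologue, fell by 0.68 ± 0.08. Outside the stalks and the exit tunnel, the other called large subunit genes lay between −0.40 (Mrpl37) and 0.54 (Mrpl20).

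Use of strand in the counting is not given in the sources used here, and reads from overlapping genes may then not be told apart. Of the 78 members, 25 overlap another gene in the RefSeq table of GRCm38.p6, among them 4 of the 8 past 2-fold (Mrpl53, Mrps6, Mrps2 and Mrps9). Mrps2 overlaps 1700007K13Rik, which fell from 13.6 to 2.09 CPM, and Mrps9 overlaps Gm23126. Mrps5, Mrpl15, Mrpl45 and Mrpl17 overlap no gene there.

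**Figure D2:**
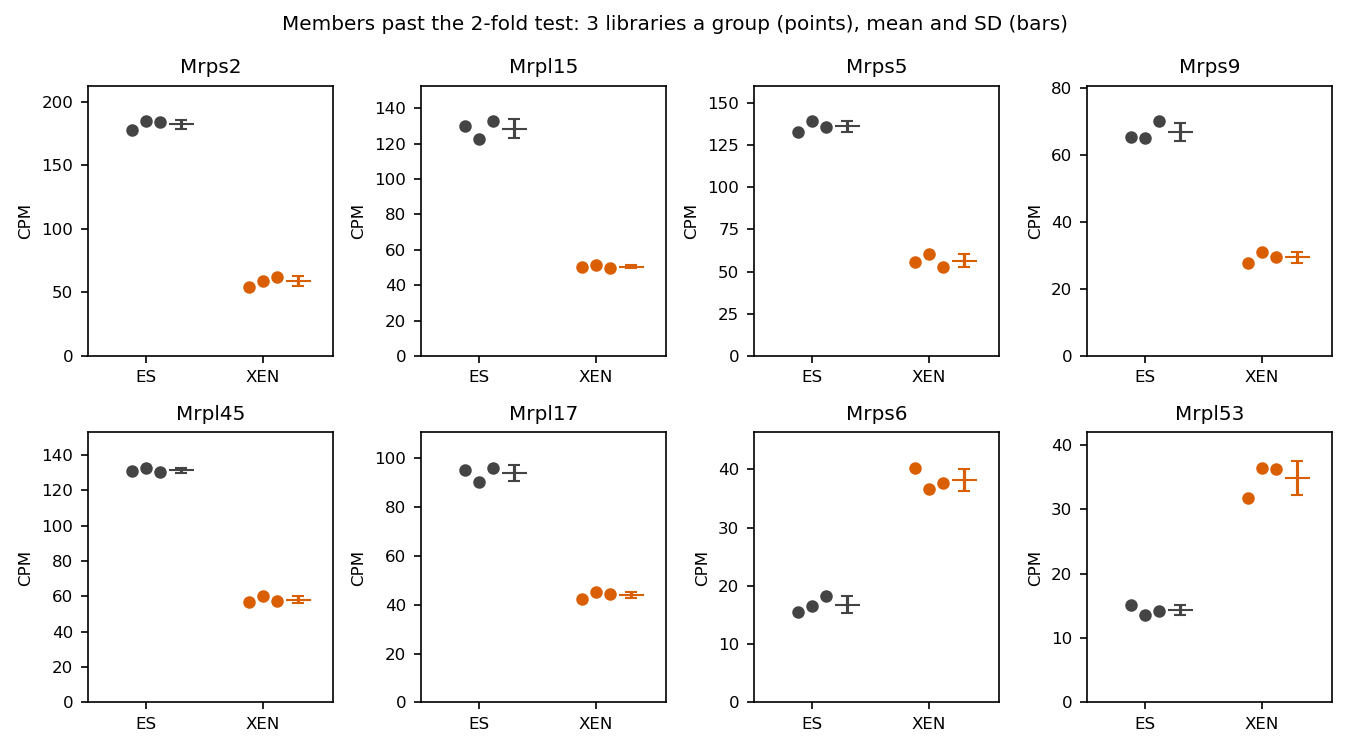
Level in CPM (y axes, each from 0) of the 8 members that passed the test against 2-fold, in ES (grey) and XEN (orange) cells. Points are the 3 libraries of a group and the bars beside them are the mean and SD, and in all 8 genes the groups do not overlap. The 6 falling genes started from 65.2 to 184.6 CPM in ES libraries, and the 2 rising genes from 13.6 to 18.3 CPM.

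Members were also described by their place in the ribosome, from lists written from textbook structure. The lists were written with earlier results of these data known, so they are not independent of the data. The stalks list takes the stalk of Mrpl10 and Mrpl12 and that of Mrpl1 together. In it 5 of 6 genes were called higher and 1 lower, where 42.0% of all tested genes were higher and 46.7% lower. The list's median log2 fold change was 0.75. The stalk base protein Mrpl10 stood at 65.92, 74.97 and 70.15 CPM in ES and 123.8, 130.2 and 129.7 CPM in XEN libraries (0.86 ± 0.06), and had the highest CPM of all members in XEN cells. Mrpl11, which lies beside it on the ribosomal RNA, rose by 0.65 ± 0.07, and Mrpl54 by 0.84 ± 0.08. Mrpl12, the protein that Mrpl10 carries in several copies, rose less, from 51.5, 50.2 and 53.3 CPM to 58.5, 61.6 and 58.9 CPM (0.21 ± 0.03). Mrpl1, of the stalk on the opposite side, fell by 0.38 ± 0.09. With upper-quartile or no composition factors 4 stalk genes were higher and 1 lower, since the call of Mrpl12 was lost. All 13581 tested genes then split into 5093 higher and 7059 lower (upper-quartile) or 5153 and 7001 (none).

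The exit tunnel list behaved otherwise, with 0 of 8 genes called higher, 5 lower and a median of −0.52. In all 62.5% of this list was called, against 88.7% of all tested genes (42.0% higher and 46.7% lower). Besides Mrpl45 and Mrpl17, Mrpl24 fell from 71.5, 71.2 and 78.3 CPM to 41.5, 43.7 and 43.6 CPM (−0.78 ± 0.05). Mrpl47 fell by 0.66 ± 0.05 and Mrpl22 by 0.38 ± 0.05. Mrpl44, a double-stranded RNA binding protein, was not called, at 31.8, 30.7 and 31.3 CPM in ES and 30.5, 32.9 and 30.1 CPM in XEN libraries, and neither was Mrpl39 (0.00 ± 0.05). Mrpl23 was not called (0.18 ± 0.15, edgeR adjusted p = 0.139), and it shares reads with an unnamed gene model described as mitochondrial L23. With the counts of both added together, an alternative chosen after seeing the data, it was called higher at 0.12 (adjusted p = 0.0491). Without ES library B it was called higher at 0.31 (adjusted p = 0.00431), and with the replicate letter as a block at 0.18 (0.0246). With upper-quartile or no composition factors, 7 tunnel genes were called lower and 0 higher, where 7059 or 7001 of all 13581 tested genes were lower.

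The other lists were mixed. In the central protuberance 4 of 7 genes were higher and 2 lower (median 0.16), led by Mrpl48 and Mrpl40 (0.45). In the head of the small subunit 3 of 8 were higher and 3 lower (median −0.05), with Mrps33 at one end and Mrps9 at the other. Of the members with a bacterial homologue 15 of 30 large subunit genes were higher and 14 lower, and 6 of 16 small subunit genes were higher and 5 lower. Of those found in mitochondria only the counts were 9 higher and 6 lower of 19 (large) and 4 higher and 5 lower of 10 (small). With upper-quartile factors these splits turned to 9 and 14, 4 and 8, 8 and 8, and 4 and 6, and those of the protuberance and head to 2 and 2, and 2 and 5. Of all tested genes 42.0% were called higher and 46.7% lower, and with upper-quartile factors 5093 of 13581 were higher and 7059 lower. All these counts are descriptions, and the lists were not tested against other genes.

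**Figure D3:**
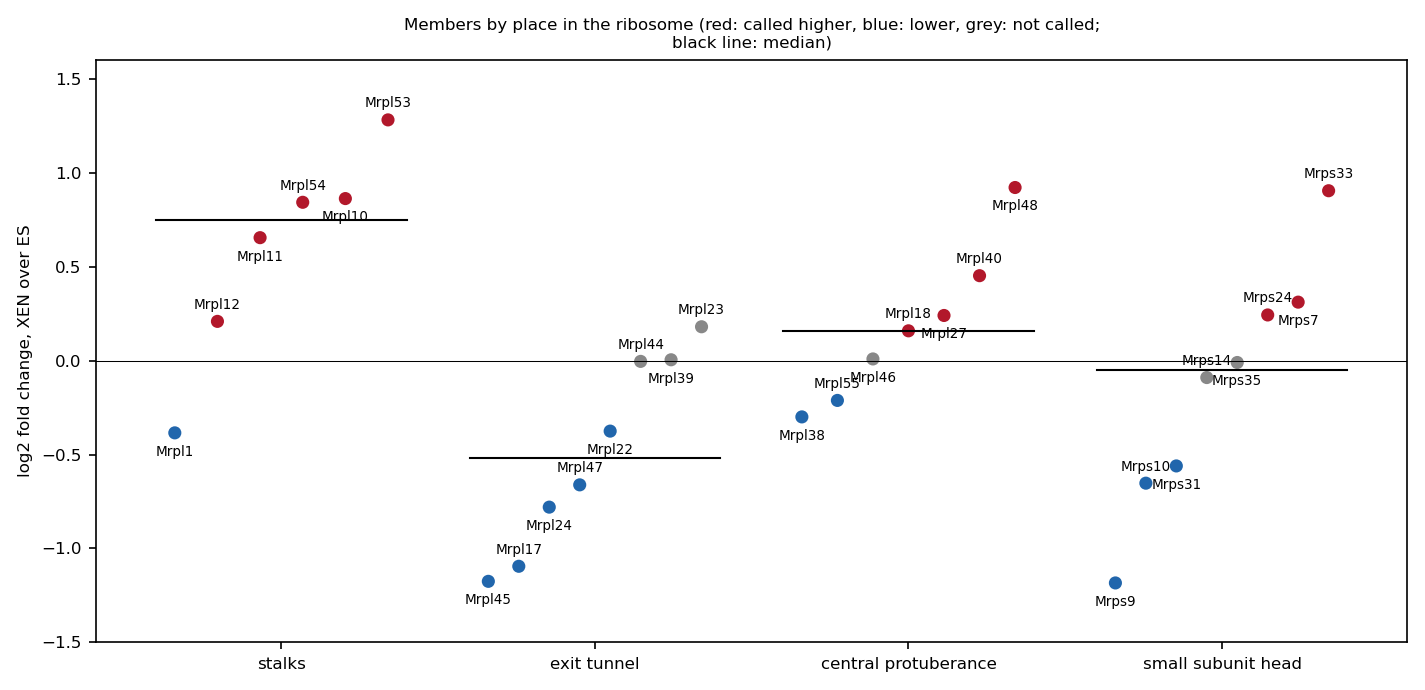
Log2 fold change, XEN over ES (y axis), of the members in 4 regions of the ribosome, with each gene a named point coloured by its edgeR call and the black line the median of the region. The stalk genes lie above 0 apart from Mrpl1, the exit tunnel genes lie at or below 0 apart from Mrpl23, which was not called, and the central protuberance and head spread to both sides.

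Some genes carry an Mrps symbol for proteins now placed elsewhere. Mrps18a and Mrps30 encode proteins of the large subunit, and Mrps36 one of the 2-oxoglutarate dehydrogenase complex. Mrps30 fell by 0.24 ± 0.04 on the log2 scale and Mrps36 rose by 0.33 ± 0.06. Mrps18a rose from 29.04, 28.03 and 28.73 CPM to 49.3, 54.1 and 49.7 CPM (0.84 ± 0.05).

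Mammals have 3 related genes of the Mrps18 family, whose products take different places: Mrps18a in the large subunit and Mrps18b and Mrps18c in the small. Mrps18b was the most abundant of them in ES cells, at 121.9, 128.0 and 122.5 CPM, and fell to 64.7, 61.6 and 65.4 CPM, while Mrps18c was at 29.4, 28.03 and 30.5 CPM in ES and 28.95, 27.4 and 26.7 CPM in XEN libraries. Of the summed FPKM of the 3 genes, Mrps18a made up 16.0% ± 0.4 in ES and 33.7% ± 1.7 in XEN cells (SD, n = 3). Mrps18b made up 54.5% ± 1.4 and 33.2% ± 1.3, and Mrps18c 29.5% ± 1.2 and 33.1% ± 1.1. The 3 genes were thus unequal in ES cells and about equal per length in XEN cells.

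Per length, the members covered a wide range in both cell types. The highest was Mrpl42, a mitochondria-specific protein, at 180.3, 187.4 and 175.5 FPKM in ES and 149.2, 156.5 and 155.9 FPKM in XEN libraries, first of the 78 in both. Mrpl52 ranked 3 among ES levels and 2 among XEN levels (117.3 ± 6.9 and 141.3 ± 11.5 FPKM), and Mrpl18, of the central protuberance, was at ranks 7 and 3 (91.8 ± 0.8 and 94.0 ± 2.5 FPKM). Mrpl18 was called higher by 0.16 in CPM, a call lost with upper-quartile factors (0.01). Among Mrps genes the highest means over all 6 libraries were those of Mrps18b, Mrps5 and Mrps16, the last at 80.0 FPKM in ES and 57.1 FPKM in XEN cells. In XEN cells alone the highest Mrps gene was Mrps21, at rank 5 of all members (83.7 ± 4.5 FPKM).

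At the low end, Mrpl57 had the lowest level in ES cells (7.12, 8.56 and 8.32 FPKM) and Mrpl17 the lowest in XEN cells (6.13, 6.56 and 6.38 FPKM). Mrps25 and Mrpl41 were close together at 8.83 ± 0.55 and 9.25 ± 0.14 FPKM in ES and 9.98 ± 0.48 and 10.02 ± 0.54 FPKM in XEN cells, and their order did not differ beyond that spread. In CPM Mrpl41 was called higher by 0.25, a call lost with upper-quartile factors (0.10). Over all 6 libraries Mrps14 and Mrps28 had the next lowest means of the Mrps genes after Mrps25, at 17.7 and 22.2 FPKM in ES cells. The SD of log2 FPKM over the Mrps genes was 0.86 to 0.88 in ES libraries and 0.72 to 0.75 in XEN libraries, so their levels lay closer together in the XEN libraries. Over the Mrpl genes the same SD was 0.92 to 0.93 (ES) and 0.95 to 0.98 (XEN).

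Over the 78 members the levels in both cell types followed each other with a Spearman correlation of 0.69 and a Pearson correlation of 0.76 (log2 mean FPKM). This is a description across genes, which share libraries and gene lengths and are not replicates. The Spearman correlation of the fold change with gene length was −0.26, and with the mean FPKM −0.02.

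**Figure D4:**
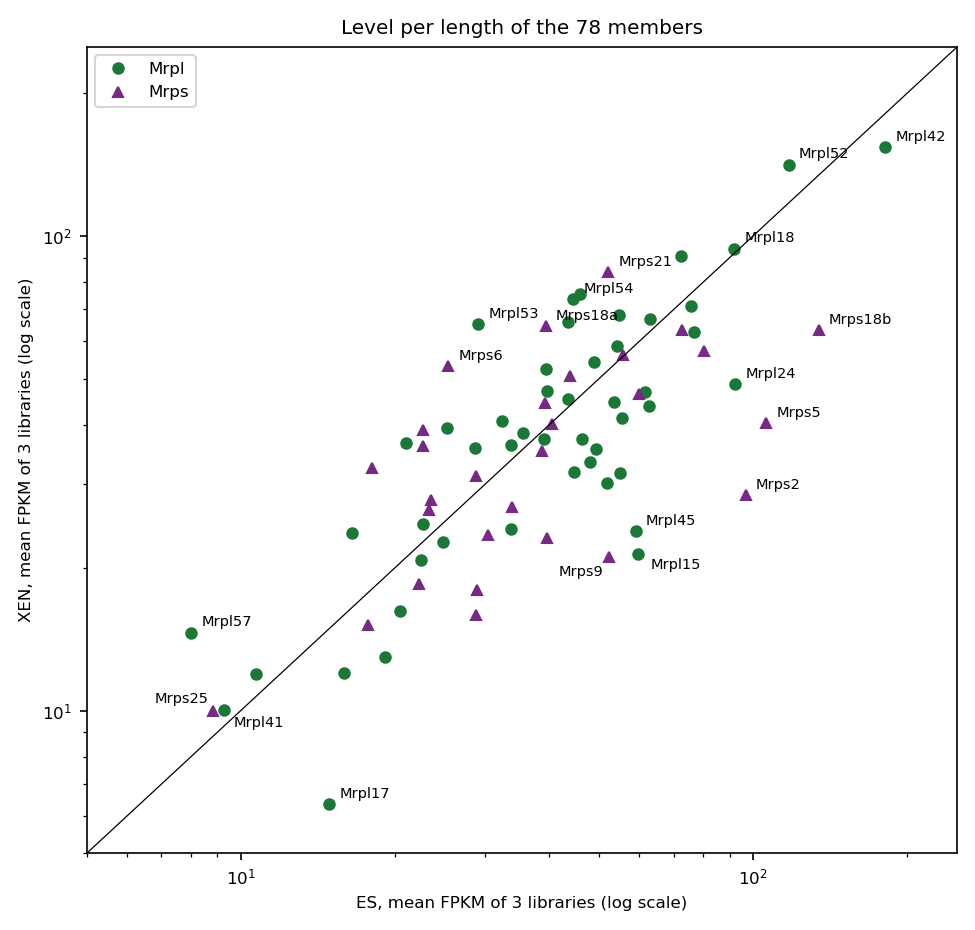
Mean FPKM of 3 libraries in ES cells (x axis) and XEN cells (y axis), both on log scales, of the 49 Mrpl genes (circles) and 29 Mrps genes (triangles), with the line of equal level. Mrps2, Mrps5, Mrpl15, Mrpl45 and Mrps9 lie well below the line and Mrpl53 and Mrps6 above it, while Mrpl42 and Mrpl52 are high in both cell types.

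Added up, the members took a small share of the total counts and, with no composition factors, a lower one in XEN cells. The Mrpl genes together took 0.246%, 0.246% and 0.255% of all counts in ES libraries and 0.215%, 0.229% and 0.223% in XEN libraries. The Mrps genes together took 0.139%, 0.138% and 0.140% against 0.103%, 0.108% and 0.106%. On this scale the groups did not overlap in either sum. The XEN mean was 0.895 of the ES mean for the Mrpl share and 0.761 for the Mrps share. These shares leave out the TMM composition factors used for CPM (1.04 to 1.05 in ES, 0.951 to 0.960 in XEN), which would bring the groups closer. Shares with those factors were not computed, so whether the Mrpl share stays lower or separate with them is not shown. The ratio of the Mrpl sum to the Mrps sum was 1.79 ± 0.02 in ES and 2.11 ± 0.02 in XEN cells (SD, n = 3). With 3 libraries a group the smallest p that the two-sided exact permutation test can give is 0.1, which all 3 values reached (0.1 after adjustment over the 3), so none could pass 0.05.

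The direction of the Mrpl sum depended on the unit. As a share of summed FPKM, which weighs each gene per length, it was higher in XEN cells by 0.0240 percentage points, while as a share of counts it was lower by 0.0263 points. The Mrps sum fell by 0.0172 points as a share of summed FPKM and fell by 0.0332 points as a share of counts. The ratio rose by 0.315 in counts, by 0.249 in FPKM and by 0.482 in counts with Mrps18a and Mrps30 moved to the large subunit and Mrps36 left out.

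**Figure D5:**
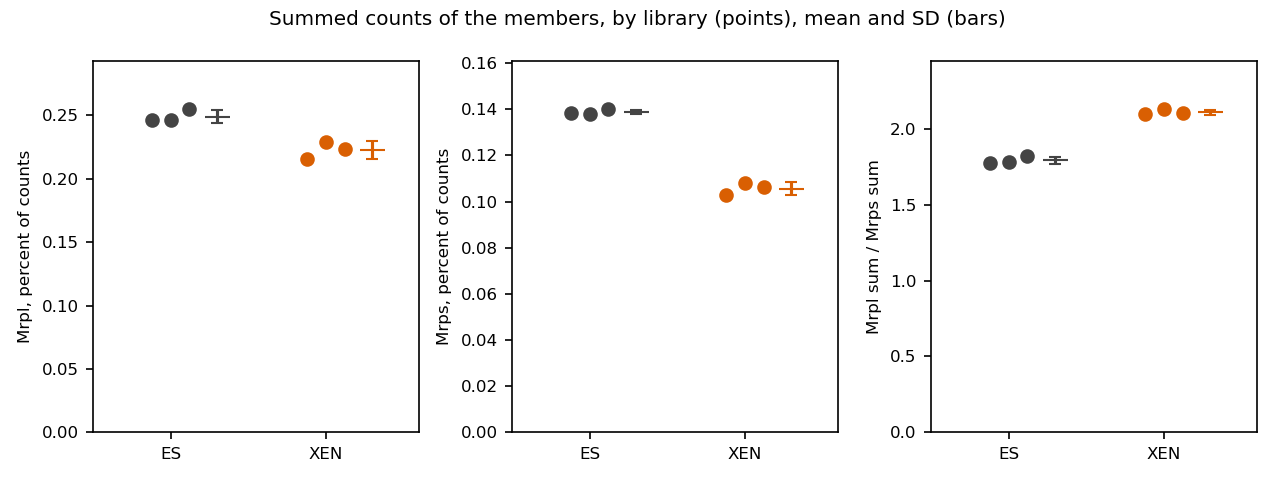
Summed expected counts of the Mrpl genes (left) and Mrps genes (middle) as a percentage of all counts of a library, and the ratio of the sums (right), each from 0, for 3 ES and 3 XEN libraries (points) with mean and SD (bars). The Mrps share is lower in XEN libraries (0.103% to 0.108% against 0.138% to 0.140%) and the ratio higher.

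Ribosome proteins without an Mrp symbol and the machinery around the ribosome were taken from lists by function, also written with earlier results known. Of 5 further ribosome proteins 2 were higher, 1 lower and 2 not called, where 42.0% of all tested genes were higher and 46.7% lower. Dap3, a GTP-binding protein of the small subunit head, rose by 0.34 ± 0.01 and Chchd1 by 0.46 ± 0.11, while Gadd45gip1, of the large subunit, fell by 0.14 ± 0.06, and Ptcd3 (0.01) and Aurkaip1 (−0.10) were not called. With RLE factors the split was 2 higher and 2 lower, and with upper-quartile or no composition factors 2 and 3. All 13581 tested genes split into 5667 and 6390 (RLE), 5093 and 7059 (upper-quartile) and 5153 and 7001 (none).

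Of 29 genes for assembly and ribosomal RNA modification, 6 (20.7%) were called higher and 21 (72.4%) lower. Over all tested genes these shares were 42.0% and 46.7%. The median log2 fold change of the list was −0.36, where the 78 members had a median of 0.07. Tfb1m, which dimethylates the small subunit's RNA, fell from a mean of 27.9 to 10.2 CPM (−1.45 ± 0.07), and Fastkd2, an RNA-binding protein of the RNA granule where the large subunit is assembled, from 55.6 to 22.5 CPM (−1.31 ± 0.03). Lower as well were 3 methyltransferases of the large subunit's RNA, Mrm1 by 0.89, Mrm2 by 0.74 and Mrm3 by 0.36 on the log2 scale. So were Trub2, a pseudouridine synthase (−0.83 ± 0.03), and the helicase Ddx28 (−0.90 ± 0.04). The 6 called higher were Rpusd3 (0.80 ± 0.06), Ybey (0.49 ± 0.10), Malsu1 (0.41), Mettl15 (0.34), Gtpbp8 (0.27) and Rcc1l (0.26). With upper-quartile factors the split was 3 higher and 22 lower, and that of all 13581 tested genes 5093 and 7059.

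Of 17 translation factors and partners, 5 (29.4%) were called higher and 8 (47.1%) lower, with a median of −0.11. Over all tested genes 42.0% were higher and 46.7% lower, with a median of −0.07, so the lower share lies near the background. Mtif2, the initiation factor that brings the first tRNA, fell from 59.5 to 22.9 CPM (−1.38 ± 0.03), and the elongation factors Tufm (−0.18 ± 0.03) and Tsfm (−0.49 ± 0.04) fell too. Pdf, the peptide deformylase that trims new chains, was called lower, from 185.0, 242.2 and 356.4 expected counts to 0, 0 and 25.3. Its counts were not whole, as where reads are shared with another model. Gfm1, the translocase, rose by 0.32 ± 0.05, the release factor gene Mtrf1 by 0.70 ± 0.08 and Taco1, an activator of Cox1 translation, by 0.55 ± 0.05. Mrpl58, a member that acts as a peptidyl-tRNA hydrolase within the large subunit, was not called (0.06 ± 0.05). Upper-quartile factors gave 3 higher and 9 lower, and 5093 and 7059 of all 13581 tested genes.

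The cytosolic ribosome's proteins, as the most alike set, were called lower in 64 of 79 tested genes (81.0%) and higher in 10 (12.7%), with a median of −0.54. Over all tested genes 46.7% were lower and 42.0% higher. Reads from their unnamed copies were not added to them, and the 2 sets were not tested against each other.

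Promoters were read from the RefSeq table of GRCm38.p6, as the 250 bases before the gene's start, and 69 of 78 members had an entry. In mammals the nuclear genes of mitochondrial proteins are known targets of NRF1 and of ETS family factors such as GABPA. The NRF1 core GCATGCGC, on either strand, was in 8 of 69 members (11.6%) and in 5.13% of the 10337 tested genes with an entry (2.56% of all 27025 genes). The ETS core CCGGAAGT was in 10 of 69 (14.5%) and 6.64% of tested genes, the YY1 core AAGATGGC in 4 (5.80%) and 2.38%, and the TATA box TATAAA in 5 (7.25%) and 7.64%. A match describes these letters only, and no set was tested. The NRF1 core was in 3 of 33 members called higher and 4 of 27 called lower, the ETS core in 6 and 3, the YY1 core in 2 and 1, and the TATA box in 3 and 0.

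A member that rose and another that fell, both picked by hand, are given 5′ to 3′ on the gene's strand with the NRF1 core in capitals. They are examples of a match on either strand, and whether the core bears on the direction of change was not tested. They are Mrpl10, which rose by 0.86, at chr11:97041332-97041581 (plus strand), and Mrpl17, which fell by 1.09, at chr7:105811088-105811337 (minus strand), where the core is on the other strand.
Mrpl10: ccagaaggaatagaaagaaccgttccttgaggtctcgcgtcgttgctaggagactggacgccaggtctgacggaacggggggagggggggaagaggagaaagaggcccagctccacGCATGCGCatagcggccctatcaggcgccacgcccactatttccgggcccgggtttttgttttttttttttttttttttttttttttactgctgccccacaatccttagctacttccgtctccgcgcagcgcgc
Mrpl17: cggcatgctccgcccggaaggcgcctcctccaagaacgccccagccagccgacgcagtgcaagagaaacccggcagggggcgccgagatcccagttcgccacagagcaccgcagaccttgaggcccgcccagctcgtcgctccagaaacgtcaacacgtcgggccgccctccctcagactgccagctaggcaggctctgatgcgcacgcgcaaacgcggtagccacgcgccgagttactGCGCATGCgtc

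Many members start back to back with another gene. A gene on the opposite strand, itself tested, started within 1000 bases upstream of 24 of 69 members (34.8%), against 1234 of 10337 tested genes (11.9%). This made 23 pairs, of which 17 had both genes called, 11 in the same direction and 6 in opposite directions. The same count over the pairs of all tested genes was not made, so these numbers have no reference. Singly, 42.0% of all tested genes were called higher and 46.7% lower. Mrpl43 (0.44) and Twnk, the mitochondrial DNA helicase (0.43), both rose, as did Mrpl49 (0.28) and Fau (0.81). In the gene table the spans of Mrpl43 and Twnk overlap, as do those of other pairs such as Mrpl14 and Tmem63b. How reads were divided between such genes was not tested. Mrpl47 (−0.66) and Ndufb5, a respiratory chain subunit (−0.51), both fell, while Mrpl27 (0.24) rose where Eme1 (−0.54) fell.

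In one pair both genes are members. Mrpl46 and Mrps11 start 42 bases apart, and only Mrps11 was called: Mrpl46 stood at 23.4, 21.8 and 23.9 CPM in ES and 23.6, 22.6 and 23.2 CPM in XEN libraries (0.01 ± 0.04), where Mrps11 rose by 0.97. The difference between their changes was not tested. Mrpl57 (0.99) and Ska3 (0.41), a kinetochore gene, start 76 bases apart and both rose. Mrpl21 (−0.13) and Ighmbp2 (0.40), a helicase gene, start 32 bases apart and changed in opposite directions. In the gene table, which counts every start, the spans of Mrpl57 and Ska3 overlap as well, and so do those of Mrpl21 and Ighmbp2. The bases between the starts of these pairs are shown because they are all that separates the starts, each 5′ to 3′ toward the first gene named: 41 bases at chr7:78783090-78783130 (minus strand), 75 at chr14:57826164-57826238 and 31 at chr19:3283011-3283041 (plus strand). None holds any of the 4 motifs searched.
Mrpl46-Mrps11: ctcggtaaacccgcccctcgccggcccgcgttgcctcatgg
Mrpl57-Ska3: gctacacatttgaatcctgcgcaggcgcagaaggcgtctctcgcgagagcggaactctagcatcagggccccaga
Mrpl21-Ighmbp2: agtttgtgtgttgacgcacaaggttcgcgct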

How the data were processed

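Total RNA of 3 ES and 3 XEN libraries was sequenced on the BGISEQ-500 platform. The build mm9 and the tools Bowtie2, RSEM and DESeq2 are named, without versions or roles, per the submitters' processing notes. The deposited tables give the authors' expected counts per gene, here rounded to whole numbers, and the authors' FPKM. Genes missing from a table were set to 0 there. Of the members, 8 include a transcript added by the authors and 15 have expected counts that are not whole, from reads shared with other models. The 957 rows with no symbol were kept in library sizes and tests.

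Genes were kept by edgeR's filterByExpr, and libraries scaled by TMM (factors 1.04 to 1.05 in ES, 0.951 to 0.960 in XEN). XEN was compared with ES by edgeR's quasi-likelihood test (edgeR 4.0.16, R 4.3.3), called at an adjusted p under 0.05. CPM are TMM-scaled, apart from those of the cell type markers, which are scaled to total counts alone. Errors of CPM and FPKM are SDs and those of log2 fold changes SEs of log2 CPM (prior count 2). The common coefficient of variation was 4.75%. No 2 libraries of a group were alike within sampling noise (chi-square over its degrees of freedom at least 2.44). The test was run on simulated counts in which few genes changed, equally up and down, at a fixed dispersion. In these data most genes changed, so that run does not check the scaling.

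Genes named by rule were the 6 largest changes per subunit and direction with a mean of at least 5 CPM, the 3 highest and 3 lowest per subunit in FPKM, all members past 2-fold and a fixed list of members with known special roles, and for other lists the 2 largest called changes per direction. Others, such as Mrpl11, Mrpl46, Mrm1 to Mrm3, Trub2, Ddx28, Tufm, Tsfm and Gfm1, were chosen after their values were seen. Members and lists were chosen with earlier results of these data known. Alternatives covered scaling, filter, test, replicate block, libraries and unit.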

Additional observations from a re-analysis of the deposited data

How the results depend on the processing

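Of the 41 named fold changes, 31 kept their direction and their side of the threshold under every alternative run. Among the others, Mrpl44, near 0, went from −0.0044 to 0.0069 with no filter and from −0.0425 to 0.0210 over the fits that leave out 1 library, and Mrps12 from 0.12 to −0.0251 with upper-quartile factors and −0.0119 with none. The calls of Mrpl12, Mrpl18 and Mrpl41 were lost with those 2 scalings and in limma-trend on FPKM. Mrpl44, Mrps14, Mrps18c and Mrps28, not called, were called lower there. Leaving out XEN library A gave a call for Mrps12, XEN B for Mrps14 and XEN C for Mrps28. Counts of calls by subunit stayed within 1.5 times under every alternative, DESeq2 and limma-voom included, from 17 to 25 (Mrpl higher), 18 to 22 (Mrpl lower), 10 to 14 (Mrps higher) and 10 to 15 (Mrps lower). Counts past 2-fold were 7 or 8, with Mrps18b in place of Mrps6 under upper-quartile or no composition factors. The Mrpl share of summed FPKM was higher by 0.0240 points. The Mrps share fell by 0.0367 points over rows with symbols and fell by 0.0172 in FPKM, and the ratio rose by 0.249 in FPKM and 0.482 with subunits by structure; the cause was not tested. Same-letter deviations correlated by 0.0327, 0.0076 and 0.0199, and each library correlated best with its own letter. Values this small cannot settle whether the replicate letters pair the libraries. With the letter as a replicate block the calls were 25 and 20 (Mrpl) and 12 and 11 (Mrps).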
